A study of Mus musculus with 10 samples.

Results

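The genes described here carry glucose from its entry into the cell to pyruvate and lactate: glucose transporters, the enzymes of glycolysis and their regulators, lactate dehydrogenase, lactate carriers, the rod-derived cone viability factor axis, and the step by which pyruvate enters mitochondria. They were chosen as a fixed list of 39 genes, of which 36 were among the 11702 genes of the deposited gene table, and all 36 passed the filter on low counts. Pfkfb1, Slc16a8 and Pdk4 were not in that table. Retinas of female mice were sequenced as polyA RNA in 10 libraries. The groups were WT injected with DMSO (4 libraries, W1 to W4), rd10 injected with DMSO (3 libraries, D1 to D3) and rd10 injected with halofantrine (HAL, an antimalarial; 3 libraries, H1 to H3).

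The rd10 mice were of the strain B6.CXB1-Pde6b rd10/J, which carries a mutated Pde6b, and their rods degenerate soon after eye opening. Pde6b encodes the beta subunit of the phosphodiesterase that rods use in phototransduction. The strain of the WT mice is not given in the labels. Every mouse, WT included, had 1 μL injected into the vitreous at P10 and P24, with 20 μM HAL or the vehicle DMSO, and the retinas were collected at P36. By the labels, batch 2 was made up of D3 with H2 and H3, and the other 7 libraries were batch 1. What a batch was is not said.

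Photoreceptors take up glucose through GLUT1 and, although oxygen is at hand, turn much of it into lactate, which leaves the cell through monocarboxylate transporters and can be burned by neighbouring cells. Hexokinase 2, the M2 form of pyruvate kinase and lactate dehydrogenase A are the photoreceptor forms usually linked to this aerobic glycolysis. Rods secrete a short thioredoxin-like protein made from Nxnl1, the rod-derived cone viability factor, which acts on cones through basigin (Bsg) and GLUT1 and so joins rod survival to the glucose supply of cones.

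A library holds 15512212 to 38160436 counts on genes. Levels are given as CPM, the counts of a gene relative to the total of its library, scaled over the 10 libraries. Pde6b stood at 2699 to 2855 CPM in W1 to W3, at 125 to 387 CPM in the 6 rd10 libraries and at 93.1 CPM in the library labelled WT W4. The summed level of 18 rod markers was 94910 to 99752 CPM in W1 to W3, 4323 CPM in W4, 5632, 5843 and 14885 CPM in D1 to D3 and 5337, 12305 and 10496 CPM in H1 to H3. W4 thus went against its label, and its library title names a set other than that of W1 to W3. Each comparison with WT is given with W4, as designed, and without it. Rod markers in rd10 DMSO averaged 9.07% of W1 to W3 and those in W4 stood at 4.46%. The summed cone markers were at 2368 to 2533 CPM in W1 to W3 and at 2374 to 2997 CPM in rd10, while Muller glia markers were at 4336 to 4529 CPM and 6752 to 8238 CPM. The single cone markers went both ways, with log2 fold changes from -1.13 to 0.75 in rd10 DMSO against WT without W4. In bulk retina, fewer cells of a type and less RNA per cell cannot be told apart, and this holds for every gene below.

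The sequences that carry the results below are shown first. The M1 and M2 forms of pyruvate kinase differ by a pair of mutually exclusive exons of Pkm of equal length, 167 bases, on chromosome 9 of GRCm38, plus strand, here taken from the GENCODE M21 transcripts. The M1 exon lies at chr9:59675029-59675195 and the M2 exon at chr9:59675568-59675734, both inside the coding sequence. Capitals mark the 64 positions at which they differ. The other 103 bases, 61.7%, are identical, and the differences are what allows the reads of both forms to be assigned.
Pkm M1 exon: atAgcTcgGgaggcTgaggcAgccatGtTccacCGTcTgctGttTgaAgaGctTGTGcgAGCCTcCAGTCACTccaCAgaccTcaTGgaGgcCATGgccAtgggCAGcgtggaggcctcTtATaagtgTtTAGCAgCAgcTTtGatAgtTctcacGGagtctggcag
Pkm M2 exon: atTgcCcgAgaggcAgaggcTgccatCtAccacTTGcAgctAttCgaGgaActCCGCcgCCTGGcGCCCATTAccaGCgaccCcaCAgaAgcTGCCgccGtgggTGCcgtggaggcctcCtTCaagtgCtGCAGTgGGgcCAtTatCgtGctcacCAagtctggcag

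The promoters of Nxnl1 and Nxnl2 are shown because both genes were the members furthest below W1 to W3 in rd10, and those of Ldha and Slc16a1 because these genes make and export lactate. Each window covers 250 bases before and 50 after an annotated start of the gene and comes from RefSeq (GRCm38.p6). Capitals mark the letters of 3 motifs on either strand: TAATCC, bound by the photoreceptor homeodomain factor Crx, the E-box CACGTG, and ACGTG, the core of the hypoxia response element, which lies within the E-box. TAATCC was in 7.06% of all promoter windows of this length, CACGTG in 7.15% and ACGTG in 19.6%. The printed Nxnl2 window held TAATCC on the minus strand, and the printed Ldha and Slc16a1 windows held CACGTG and ACGTG. None of the motifs was in the printed Nxnl1 window. Another Ldha window, not printed, held TAATCC. A match is a description of the letters and not a site.
Nxnl1 promoter, chr8:71566600-71566899, minus strand: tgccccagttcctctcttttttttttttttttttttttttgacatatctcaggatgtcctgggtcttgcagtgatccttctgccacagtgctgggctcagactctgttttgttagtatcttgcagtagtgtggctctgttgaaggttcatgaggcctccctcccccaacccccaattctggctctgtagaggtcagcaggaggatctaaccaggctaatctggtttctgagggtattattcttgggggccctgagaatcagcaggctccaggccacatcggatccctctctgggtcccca
Nxnl2 promoter, chr13:51170775-51171074, plus strand: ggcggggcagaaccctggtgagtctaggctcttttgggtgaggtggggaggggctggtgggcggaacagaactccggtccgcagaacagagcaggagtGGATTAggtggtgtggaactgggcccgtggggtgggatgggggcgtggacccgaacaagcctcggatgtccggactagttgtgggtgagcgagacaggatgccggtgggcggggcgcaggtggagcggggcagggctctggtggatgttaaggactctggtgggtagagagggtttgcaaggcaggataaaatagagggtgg
Ldha promoter, chr7:46845554-46845853, plus strand: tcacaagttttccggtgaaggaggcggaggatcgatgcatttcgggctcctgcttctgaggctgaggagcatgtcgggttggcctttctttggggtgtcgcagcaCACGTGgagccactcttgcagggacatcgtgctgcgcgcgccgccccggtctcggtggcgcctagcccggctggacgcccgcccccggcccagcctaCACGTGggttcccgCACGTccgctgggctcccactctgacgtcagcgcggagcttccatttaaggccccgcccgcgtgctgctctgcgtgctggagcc
Slc16a1 promoter, chr3:104638414-104638713, plus strand: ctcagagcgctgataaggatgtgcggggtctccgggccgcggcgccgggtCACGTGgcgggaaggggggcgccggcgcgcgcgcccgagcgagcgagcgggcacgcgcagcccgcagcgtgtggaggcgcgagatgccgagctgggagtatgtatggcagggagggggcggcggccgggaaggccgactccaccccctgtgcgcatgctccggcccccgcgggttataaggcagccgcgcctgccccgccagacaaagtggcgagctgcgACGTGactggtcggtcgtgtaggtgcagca

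The first comparison asked how these genes stood in rd10 retina against WT. Without W4, 25 of 36 members passed the test: 16 fell and 9 rose. Among the genes that fell were the cone viability factor genes Nxnl1 and Nxnl2, the fructose 2,6-bisphosphate enzyme Pfkfb2, the hexokinase Hk2, the lactate carrier Slc16a1 and lactate dehydrogenase Ldha, while the neuronal glucose transporter Slc2a3, the muscle-type phosphofructokinase Pfkm and the carrier Slc16a7 rose. Over all 11696 genes tested, 62.2% were called in this fit, 32.3% higher and 29.9% lower, so a call by itself does not set these genes apart. With W4 kept in the WT group, edgeR's quasi-likelihood test called 0 of 36 members and 0% of 11698 genes, with 3108 genes (26.6%) at an unadjusted p under 0.05, while DESeq2 called 6 members of 589 genes. In the edgeR fit with W4, 13 members had an unadjusted p under 0.05 (10 lower and 3 higher), and the lowest adjusted p was 0.187. The libraries of the groups did not overlap for 2 of 36 members with W4, against 10.1% of all genes, and for 28 of 36 without it, against 69.1%. Of the 25 members called without W4, W4 was nearer to the rd10 DMSO mean than to W1 to W3 for 24. The exception was Pfkfb3.

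**Figure D1:**
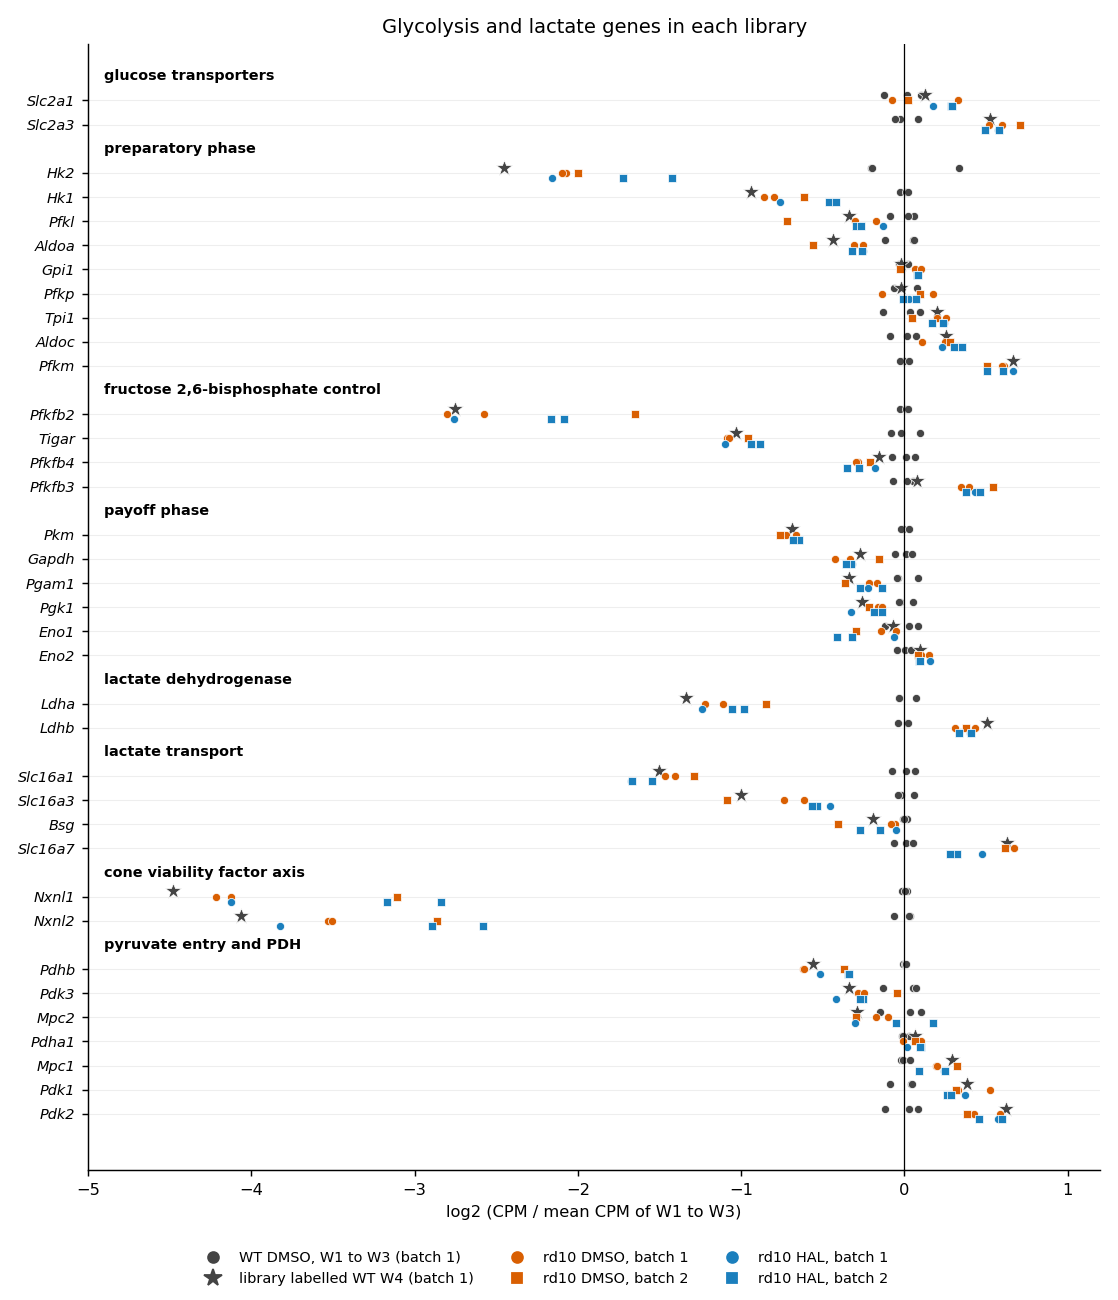
Level of each of the 36 members in each library, as log2 of its CPM over the mean CPM of W1 to W3 (x axis), grouped by role. Circles are batch 1, squares batch 2 and the star is the library labelled WT W4, which lies on the rd10 side for most members that differ, and below all rd10 libraries for Nxnl1, Nxnl2 and Hk2.

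The genes of the cone viability factor axis were the lowest. Nxnl1 stood at 330, 338 and 335 CPM in W1 to W3, at 15.0 CPM in W4, at 18.02, 19.2 and 38.8 CPM in D1 to D3 and at 19.2, 46.7 and 37.2 CPM in H1 to H3. Every rd10 library and W4 lay far below W1 to W3, and the libraries of batch 2 were the higher rd10 libraries. Without W4 the log2 fold change in rd10 DMSO was -3.74 (SE 0.288, adjusted p = 5.00e-05, edgeR). With W4 in the WT group it was -3.33 (SE 0.987, adjusted p = 0.187). Nxnl2, the paralog whose product also acts on photoreceptors, stood at 103, 96.3 and 102 CPM in W1 to W3, 6.02 CPM in W4, 8.68, 8.83 and 13.8 CPM in D1 to D3 and 7.11, 16.8 and 13.5 CPM in H1 to H3. Its log2 fold change without W4 was -3.28 (SE 0.174). In rd10 DMSO, Nxnl1 stood at 7.58% and Nxnl2 at 10.4% of W1 to W3, beside 9.07% for the summed rod markers. Other members kept more: Pfkfb2 stood at 21.0%, Hk2 at 24.1%, Slc16a1 at 38.3%, Ldha at 48.3% and Pkm at 60.9%.

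The short and the long product of Nxnl1 could not be separated, because all Nxnl1 counts in the transcript table lie on 1 transcript. Nxnl2 has a spliced transcript and an intron-retaining one. The intron-retaining transcript took 24.998% to 30.0% of the Nxnl2 counts in W1 to W3 and 18.8% to 31.0% in the 6 rd10 libraries, so these ranges overlapped while both transcripts were low.

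Glucose enters through Slc2a1 (GLUT1), the carrier of photoreceptors, glia and vessels, and Slc2a3 (GLUT3), the neuronal carrier. Slc2a1 stood at 198, 231 and 219 CPM in W1 to W3, 235 CPM in W4, 270, 204.9 and 219 CPM in D1 to D3 and 243, 263 and 264 CPM in H1 to H3. The rd10 DMSO libraries overlapped W1 to W3, and the log2 fold change without W4 was 0.11 (SE 0.113, adjusted p = 0.421, edgeR). Slc2a3 stood at 109, 118 and 107 CPM in W1 to W3, 159 CPM in W4, 159, 168 and 182 CPM in D1 to D3 and 165, 166 and 157 CPM in H1 to H3. It rose by a log2 fold change of 0.62 without W4 (SE 0.0725, adjusted p = 2.66e-04, edgeR) and stood at 0.46 with W4 (adjusted p = 0.187). Per kilobase of transcript, the level of Slc2a1 was 2.27 to 2.47 times that of Slc2a3 in W1 to W3 and 1.44 to 2.22 times in the rd10 libraries.

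Hexokinase traps glucose in the cell, and both measured forms fell without W4. Hk2, the form concentrated in photoreceptors, stood at 421, 422 and 611 CPM in W1 to W3, 88.6 CPM in W4, 115.03, 113 and 121 CPM in D1 to D3 and 108, 180 and 147 CPM in H1 to H3, a log2 fold change of -2.04 in rd10 DMSO without W4 (SE 0.151, adjusted p = 4.32e-05, edgeR). W3 was the high WT library for this gene. Hk1, the form of most neurons, stood at 826, 849 and 854 CPM in W1 to W3, 439 CPM in W4, 465, 485 and 551 CPM in D1 to D3 and 498, 612 and 629 CPM in H1 to H3, a log2 fold change of -0.74 without W4 (SE 0.0831). Of the summed hexokinase level per kilobase, Hk2 held 20.3% to 26.0% in W1 to W3, 10.7% in W4 and 10.5% to 14.5% in rd10. Hk1 counts were split over 20 annotated transcripts. Transcript Hk1-212, chosen after its values were seen, stood at 75.1 to 87.5 CPM in W1 to W3 and at 14.5 to 34.6 CPM in rd10, and its share of Hk1 counts was 9.10% to 10.2% and 2.92% to 6.28%.

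The other preparatory enzymes were nearer to WT. Phosphofructokinase, the committed step, has 3 genes: Pfkl fell by 0.37 on the log2 scale without W4 (adjusted p = 0.0440, edgeR), Pfkm rose by 0.58 (adjusted p = 1.18e-04, edgeR), and Pfkp stood at 0.06 (adjusted p = 0.628, edgeR). Pfkm stood at 175, 178 and 172 CPM in W1 to W3, 278 CPM in W4, 267, 265 and 248 CPM in D1 to D3 and 278, 249 and 265 CPM in H1 to H3, so no rd10 library reached down to a WT library other than W4. Per kilobase, Pfkm held 12.4% to 13.2% of the phosphofructokinase level in W1 to W3 and 17.8% to 20.8% in rd10. Of the aldolases, Aldoa fell (-0.36, from 1909 to 2157 CPM in W1 to W3 to 1407 to 1741 CPM in rd10 DMSO) and Aldoc, a form of glia and some neurons, rose (0.22). Aldoa over Aldoc, per kilobase, was 5.60 to 5.80 in W1 to W3 and 3.46 to 4.35 in rd10. Gpi1, the isomerase, and Tpi1, which interconverts the triose phosphates, did not pass the test, with log2 fold changes of 0.06 and 0.18.

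Fructose 2,6-bisphosphate switches phosphofructokinase on, and its level is set by the bifunctional Pfkfb enzymes and by Tigar, which breaks it down. Pfkfb2 stood at 679, 697 and 702 CPM in W1 to W3, 103 CPM in W4, 99.5, 116 and 220 CPM in D1 to D3 and 102, 154 and 163 CPM in H1 to H3. W1 to W3 were far above rd10, W4 lay within the rd10 range, and within rd10 the 3 libraries of batch 2 were above the 3 of batch 1. Its log2 fold change without W4 was -2.24 (SE 0.283, adjusted p = 3.75e-04, edgeR). Tigar stood at 54.2, 56.6 and 61.4 CPM in W1 to W3, 28.0 CPM in W4 and 26.8 to 31.1 CPM in the 6 rd10 libraries, a log2 fold change of -1.03 (SE 0.0759). Pfkfb4 was also lower (-0.25). Pfkfb3, the form with the strongest kinase activity, went the other way: it stood at 50.5, 49.2 and 46.4 CPM in W1 to W3, 51.4 CPM in W4, 61.9, 64.1 and 71.0 CPM in D1 to D3 and 65.8, 67.1 and 63.3 CPM in H1 to H3. Its log2 fold change was 0.44 without W4 (adjusted p = 0.00145, edgeR) and 0.41 with it (unadjusted p = 0.00152, adjusted p = 0.187). Pfkfb2 made up 90.2% to 90.7% of the level of Pfkfb2, Pfkfb3 and Pfkfb4 per kilobase in W1 to W3, 60.3% in W4 and 55.9% to 74.3% in rd10.

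**Figure D2:**
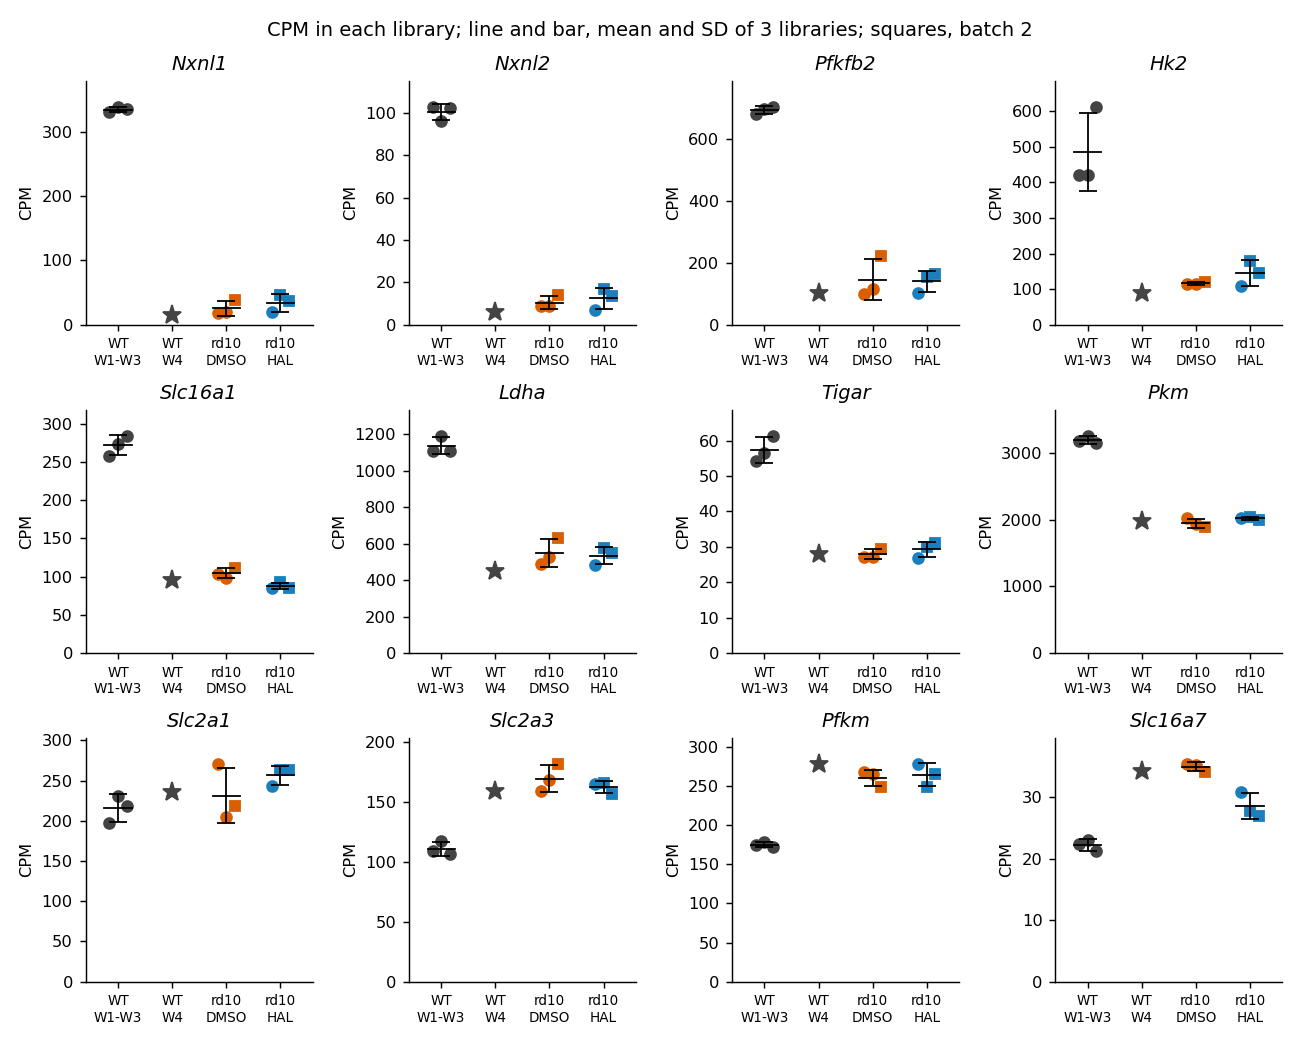
CPM of 12 members in each library (y axes start at 0), with the mean and SD of each group of 3 and the library labelled WT W4 by itself as a star. Squares are batch 2. Nxnl1 and Nxnl2 stand at 7.58% and 10.4% of W1 to W3 on average in rd10 DMSO, Slc2a3, Pfkm and Slc16a7 above W1 to W3, and Slc2a1 overlaps.

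Of the 6 genes of the payoff phase, from glyceraldehyde phosphate to pyruvate, 3 fell and 0 rose without W4, where 29.9% of all genes were called lower and 32.3% higher. Pkm, whose product makes pyruvate, stood at 3179, 3259 and 3150 CPM in W1 to W3, 1982 CPM in W4, 2019, 1932 and 1888 CPM in D1 to D3 and 2022, 2047 and 1993 CPM in H1 to H3. Within each set the libraries were close, and the log2 fold change was -0.70 without W4 (SE 0.0771, adjusted p = 1.99e-04, edgeR). Gapdh, often used as a reference gene, stood at 2693 to 2900 CPM in W1 to W3 and 2090, 2229 and 2513 CPM in rd10 DMSO (-0.29, SE 0.0969, adjusted p = 0.0331, edgeR). Pgam1 fell by 0.24. Pgk1 (-0.16), Eno1 (-0.15) and the neuronal enolase Eno2 (0.12) did not pass the test, with adjusted p from 0.0603 to 0.219 (edgeR).

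The fall of Pkm was unequal between its forms. Counts on the M2 transcript, which holds the M2 exon printed above, were at 2074, 2149 and 2038 CPM in W1 to W3, 922 CPM in W4, 1054, 988 and 969 CPM in D1 to D3 and 1064, 1138 and 1048 CPM in H1 to H3. Those on the M1 transcripts were at 966, 973 and 964 CPM, 1008 CPM, 913, 887 and 834 CPM, and 897, 853 and 889 CPM in the same order. In rd10 DMSO the M2 mean was thus 48.1% and the M1 mean 90.7% of W1 to W3. M2 made up 68.2%, 68.8% and 67.9% of both forms in W1 to W3, 47.8% in W4, 53.6%, 52.7% and 53.7% in D1 to D3 and 54.3%, 57.1% and 54.1% in H1 to H3. The difference of rd10 DMSO from WT was -15.0 percentage points without W4, for which the exact permutation test gave a two-sided p of 0.10, the smallest that 3 against 3 allows, and -9.84 points with W4 (exact p = 0.143). Shares within a gene do not depend on the scaling of the libraries. HAL was 1.83 points above DMSO in rd10, and its 3 libraries lay above the 3 of DMSO (exact permutation p = 0.10, again the smallest possible). This difference was 0.836 points without H2 and up to 2.36 points without another library.

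**Figure D3:**
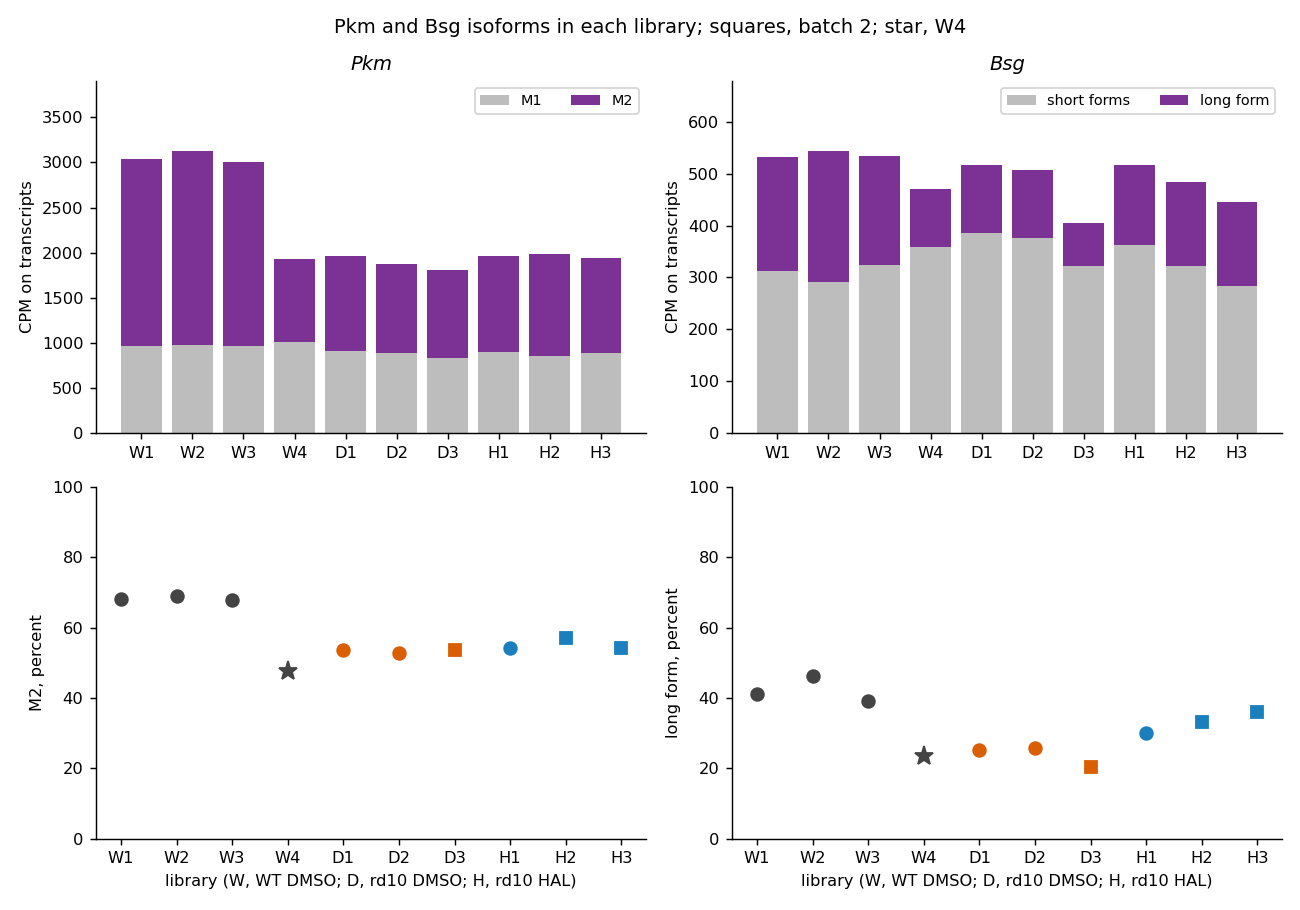
Upper row, CPM of the Pkm M1 and M2 transcripts and of the Bsg short and long transcripts in each library, stacked. Lower row, the percent of M2 and of the long form. M2 is at 67.9% to 68.8% in W1 to W3 and at 52.7% to 57.1% in the rd10 libraries, and W4 (star) is below both.

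Lactate dehydrogenase turns pyruvate into lactate and back. Ldha, the form favouring lactate, stood at 1111, 1194 and 1111 CPM in W1 to W3, 450 CPM in W4, 488, 528 and 634 CPM in D1 to D3 and 483, 577 and 548 CPM in H1 to H3. Ldhb, the form favouring pyruvate, stood at 154, 154 and 148 CPM in W1 to W3, 215 CPM in W4, 205.3, 188 and 198 CPM in D1 to D3 and 200.7, 201.2 and 192 CPM in H1 to H3. The 2 genes thus moved in opposite directions without W4. Their log2 fold changes were -1.04 for Ldha (SE 0.109, adjusted p = 1.66e-04, edgeR) and 0.39 for Ldhb (SE 0.0571, adjusted p = 8.13e-04, edgeR).

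Lactate crosses membranes through the monocarboxylate transporters, and Bsg is their chaperone at the membrane. Slc16a1 (MCT1) stood at 258, 274 and 284 CPM in W1 to W3, 96.0 CPM in W4, 103, 98.4 and 111 CPM in D1 to D3 and 85.4, 93.1 and 85.6 CPM in H1 to H3. Its log2 fold change in rd10 DMSO without W4 was -1.37 (SE 0.0708, adjusted p = 1.55e-05, edgeR), the lowest adjusted p among the members. Slc16a3 (MCT4, a low-affinity exporter) stood at 52.2, 55.0 and 51.5 CPM in W1 to W3, 26.4 CPM in W4, 31.7, 34.6 and 24.9 CPM in D1 to D3 and 38.6, 36.5 and 35.7 CPM in H1 to H3 (-0.78, SE 0.118). Slc16a7 (MCT2, a high-affinity importer of neurons) stood at 22.3, 23.0 and 21.2 CPM in W1 to W3, 34.2 CPM in W4, 35.4, 35.3 and 34.1 CPM in D1 to D3 and 30.9, 27.8 and 26.9 CPM in H1 to H3 (0.66, SE 0.0689). The 2 carriers that fell and the 1 that rose did so without overlap between rd10 DMSO and W1 to W3. Of the summed level of the 3 carriers per kilobase, Slc16a1 held 65.0% to 67.5% in W1 to W3 and 41.5% to 56.1% in rd10.

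Bsg as a whole stood at 532, 543 and 534 CPM in W1 to W3, 470 CPM in W4, 516, 507 and 405 CPM in D1 to D3 and 516, 483 and 445 CPM in H1 to H3 (-0.16, adjusted p = 0.190, edgeR). Bsg-201 is the long transcript, with an extra exon of 348 bases. It encodes the photoreceptor form of basigin, the one reported to bind the cone viability factor. It stood at 219, 251 and 210 CPM in W1 to W3, 111 CPM in W4, 130, 131 and 82.3 CPM in D1 to D3 and 154, 160 and 161 CPM in H1 to H3. The short forms together were at 292 to 325 CPM in W1 to W3, 359 CPM in W4 and 284 to 386 CPM in rd10. The long form made up 41.2%, 46.2% and 39.2% of Bsg counts in W1 to W3, 23.6% in W4, 25.3%, 25.8% and 20.3% in D1 to D3 and 29.9%, 33.2% and 36.1% in H1 to H3. Rd10 DMSO was 18.4 points lower than WT without W4 (-18.4, exact permutation p = 0.10) and 13.7 lower with it (-13.7, exact p = 0.114). HAL was 9.26 points above DMSO (exact permutation p = 0.10, the smallest that 3 against 3 allows), with every HAL library above every DMSO library in each batch.

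Pyruvate enters mitochondria through Mpc1 and Mpc2 and is oxidised by pyruvate dehydrogenase (Pdha1, Pdhb), which the kinases Pdk1 to Pdk4 switch off. Without W4, Pdk1 (0.40, adjusted p = 0.00314) and Pdk2 (0.48, adjusted p = 0.00145) rose, Mpc1 rose (0.25) and Pdhb fell (-0.52, adjusted p = 9.55e-04, all edgeR). Pdk2 stood at 60.5, 54.5 and 62.7 CPM in W1 to W3, 91.2 CPM in W4 and 77.2 to 89.5 CPM in rd10, and Pdhb at 121, 122 and 123 CPM, 82.8 CPM and 79.3 to 96.4 CPM. Pdk3 (-0.18), Pdha1 (0.06) and Mpc2 (-0.18) did not pass the test, and Pdha1 stood at 106 to 109 CPM in W1 to W3 and 107 to 115.1 CPM in rd10 DMSO.

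**Figure D4:**
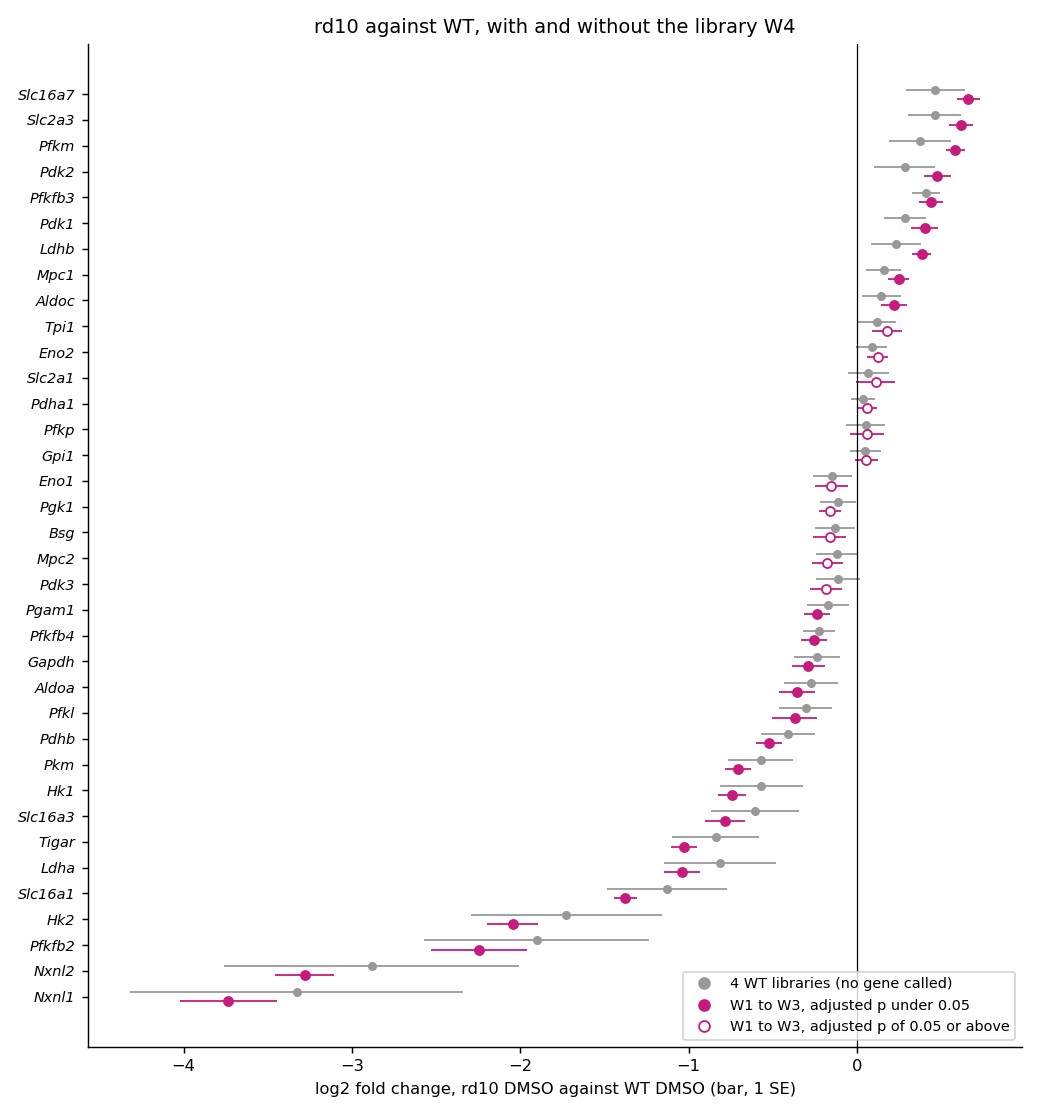
Log2 fold change of each member in rd10 DMSO against WT DMSO (x axis; bars, 1 SE) with all 4 WT libraries (grey) and without W4 (magenta, filled where the adjusted p was under 0.05). The order and the signs are those of the text, from Nxnl1 at -3.74 to Slc16a7 at 0.66, and the SE are narrower without W4.

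The median of all genes moved by 0.21 on the log2 scale when libraries were scaled by their size alone instead of TMM, which turned the members' split without W4 from 9 higher and 16 lower to 15 higher and 11 lower and that of all genes from 51.9% to 72.7% higher. No member called under both scalings changed its sign. Aldoa, Gapdh, Pfkl, Pfkfb4 and Pgam1 were called lower with TMM and not by library size alone, and Eno2, Gpi1, Pdha1, Pfkp, Slc2a1 and Tpi1 were called higher by library size alone and not with TMM. In batch 1 alone, D1 and D2 against W1 to W3, 29 of 36 members passed (11 higher, 18 lower), as did 72.3% of all genes. Nxnl1 stood at -4.15, Pfkfb2 at -2.67 and Pfkl at -0.23 in that fit. Inside batch 1 the library titles give W1 to W3 a set name of their own, W4 another, and D1, D2 and H1 yet another. Set and genotype thus cannot be told apart there. Besides rod and Muller glia markers, other summed markers differed between W1 to W3 and rd10: 328 to 383 CPM against 1447 to 1854 CPM for gliosis, 23.1 to 30.7 CPM against 107 to 144 CPM for microglia (5 of 10 markers in the table) 269 to 300 CPM against 489 to 669 CPM for endothelium (6 of 8), 1722 to 1806 CPM against 2587 to 3074 CPM for bipolar cells, 2115 to 2241 CPM against 2989 to 3451 CPM for amacrine and ganglion cells, and 34.7 to 41.4 CPM against 95.03 to 106 CPM for astrocytes (3 of 4). The part of these cells in the changes was not tested.

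Members of other parts of the pathway, in lists drawn up from textbook knowledge, also split in both directions without W4, in the fit that called 32.3% of all genes higher and 29.9% lower. Of the other glycolysis isozymes, 5 rose and 2 fell of 9 tested. Of the other glucose and monocarboxylate carriers, 5 rose and 1 fell of 9, and of the remaining pyruvate dehydrogenase genes, 3 rose and 2 fell of 8. In the pentose phosphate pathway 3 rose and 3 fell of 10, in the citric acid cycle 3 rose and 5 fell of 18, among the malate-aspartate and creatine shuttles 1 rose and 3 fell of 8, and among HIF and other regulators 4 rose and 7 fell of 24. In glycogen metabolism 13 rose and 0 fell of 20, with a median log2 fold change of 0.38, against -0.01 over all genes. Hkdc1, which holds hexokinase domains, stood at 9.39, 11.5 and 10.6 CPM in W1 to W3 and 38.5 to 42.5 CPM in rd10 DMSO (1.96). Hif3a (1.64) and Suclg2, a subunit of succinate-CoA ligase (1.42), also rose. Slc16a6, another carrier of the monocarboxylate family, stood at 222 to 231 CPM in W1 to W3 and 26.3 to 43.2 CPM in rd10 DMSO (-2.79). Ckmt1, a mitochondrial creatine kinase (-1.22), and Pdp2, a pyruvate dehydrogenase phosphatase (-0.87), fell as well. With W4, 0 genes of these lists were called by edgeR, as 0 were over all genes.

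The second comparison asked whether HAL changed these genes in rd10 retina. It called 0 of 36 members and 0% of 11692 genes by edgeR, with 2 members and 557 genes (4.76%) at an unadjusted p under 0.05. DESeq2 called 3 genes, of which 0 were members, and limma-voom called 0 genes. The members' log2 fold changes ran from -0.29 to 0.46, with a median of 0.02. In data simulated at these library sizes, 92.0% of genes given a fold of 2 were recovered, and 53.0% at a fold of 1.5, so smaller changes could pass unseen. The simulated libraries held no batches, the changed genes were drawn at random, and 8 of 153 calls were false. Members with a wide spread between libraries, such as Nxnl1 (SE 0.388) and Pfkfb2 (SE 0.311), could be missed more often. Slc16a1 (-0.24, SE 0.0718, unadjusted p = 0.0110) and Slc16a7 (-0.29, SE 0.0772, unadjusted p = 0.00612) were lower in each HAL library than in each DMSO library, and Slc16a3 was higher (0.27, SE 0.121, unadjusted p = 0.0568), all with an adjusted p of 0.883 from edgeR. These were the 3 of 36 members whose groups did not overlap, against 13.1% of all genes.

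Since the batches hold unequal numbers of HAL and DMSO libraries, the values were also taken within batches. Inside batch 2 the library titles name a different set for H2 and H3 than for D3. Set and treatment thus cannot be told apart in that batch. Slc16a1 was lower with HAL by 0.24 in batch 1 and by 0.32 in batch 2 on the log2 scale (-0.24 and -0.32), Slc16a7 stood at -0.19 and -0.32, and Slc16a3 at 0.22 and 0.53. With batch as a term, the 3 carriers had unadjusted p of 0.00233, 0.00742 and 0.00471 in that order and adjusted p of 0.269 (edgeR). In that fit, 6 of 36 members had an unadjusted p under 0.05, as did 16.6% of all genes, so the count of members was near that of all genes. The other 3 were Pfkl (0.27), Pfkfb2 (-0.28) and Pdk3 (-0.18). The log2 fold change of Nxnl1 with HAL was 0.46 (SE 0.388, adjusted p = 0.886, edgeR). It was 0.17 without H2 and 0.89 without D3. Its difference in mean log2 CPM was 0.44 over all 6 libraries, 0.04 within batch 1 and 0.10 within batch 2. Nxnl2 stood at -0.30 and 0.12, Hk2 at -0.08 and 0.42, and Hk1 at 0.07 and 0.17. The pooled differences of Nxnl1 (0.44) and Hk1 (0.21) lie above both of their within-batch values. Of the HAL libraries 2 of 3 are of batch 2, and of the DMSO libraries 1 of 3. Slc2a1 (0.15, adjusted p = 0.883), Ldha (-0.04, adjusted p = 0.969) and Pkm (0.05, adjusted p = 0.903, all edgeR) did not pass.

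**Figure D5:**
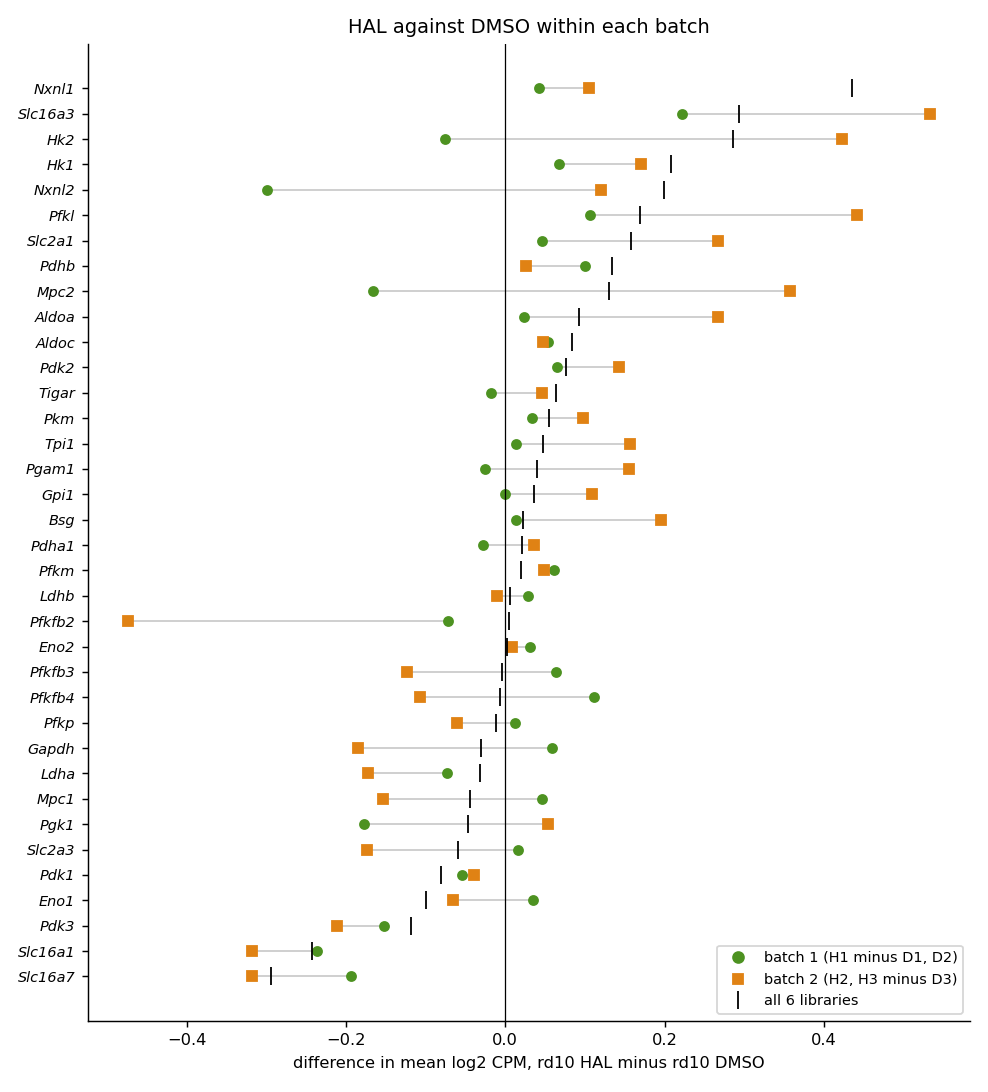
Difference in mean log2 CPM between rd10 HAL and rd10 DMSO (x axis) for each member, within batch 1 (circles), within batch 2 (squares) and over all 6 libraries (short vertical lines). Slc16a1 and Slc16a7 are below 0 and Slc16a3 above 0 in both batches, while the line of Nxnl1 at 0.44 lies beyond both of its batch values.

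Marker sums of other cell types varied among these libraries. Those of gliosis did not overlap between the treatments, at 1646 to 1854 CPM with DMSO and 1447 to 1626 CPM with HAL, while those of pigment epithelium and blood overlapped. The summed level of 7 measured pigment epithelium markers was 464, 179 and 362 CPM in D1 to D3 and 250, 135 and 152 CPM in H1 to H3, and that of 3 measured haemoglobin genes 30.8, 15.5 and 28.5 CPM and 11.8, 96.5 and 79.6 CPM. Slc16a1 is also made by the pigment epithelium. Rpe65, its visual cycle enzyme, stood at 6.45 to 18.1 CPM in rd10 DMSO and 7.59 to 11.4 CPM with HAL. Slc16a8 (MCT3), the carrier of that epithelium, was measured on transcripts alone, at 7.21, 4.92 and 1.91 CPM in D1 to D3 and 6.62, 4.39 and 3.98 CPM in H1 to H3. The part of these cells in the carrier values was not tested.

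Against WT, the HAL-injected rd10 retinas gave 0 of 36 members called with W4 and 0.00855% of all genes, which was the 1 gene Gm45837, with 13 of 36 members and 34.6% of all genes at an unadjusted p under 0.05. DESeq2 called 9 of 36 members and 19.0% of all genes. Without W4, 29 members passed, 11 higher and 18 lower, against 71.9% of all genes (35.7% higher and 36.2% lower). Scaled by library size alone, 15 members were higher and 11 lower, and the share of called genes that were higher went from 49.7% to 70.9%. Both comparisons with WT share the WT libraries, so their values are given side by side and not as support for each other. Without W4 the log2 fold changes with HAL and with DMSO were -3.27 and -3.74 for Nxnl1, -2.31 and -2.24 for Pfkfb2, -1.74 and -2.04 for Hk2, -1.63 and -1.37 for Slc16a1, -1.09 and -1.04 for Ldha, -0.66 and -0.70 for Pkm, 0.55 and 0.62 for Slc2a3, 0.59 and 0.58 for Pfkm, and 0.36 and 0.66 for Slc16a7. With W4 kept, the HAL values were -2.89, -1.96, -1.41, -1.37, -0.85, -0.52, 0.40 and 0.40 for these genes from Nxnl1 to Pfkm and 0.17 for Slc16a7 (adjusted p = 0.135 at the lowest, edgeR). Slc2a1, Tpi1, Pgk1 and Pdk3 passed the test with HAL and not with DMSO, at 0.25, 0.22, -0.22 and -0.31, and the differences of these genes between HAL and DMSO did not pass their own test. Pgk1 and Pdk3 lost that call under library size alone. In batch 1 alone without W4, Tpi1 (adjusted p = 0.0173), Pgk1 (adjusted p = 0.0391) and Pdk3 (adjusted p = 0.0199, all edgeR) passed with DMSO too, and Slc2a1 did not (adjusted p = 0.268). Of the other lists, Hif3a (1.89), Hkdc1 and Suclg2 (1.17) rose furthest with HAL against WT without W4, and Slc16a6 (-2.80), Ckmt1 (-0.99) and the deacetylase gene Sirt1 (-0.73) fell furthest.

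The last comparison set the batches of the 6 rd10 libraries against each other, with treatment as a term. It called 4.63% of 11698 genes, 3.09% higher and 1.55% lower in batch 2, and 5 of 36 members, all higher in batch 2. These were Nxnl1 (1.09, SE 0.107, adjusted p = 0.00393), Nxnl2 (0.87, adjusted p = 0.0265), Pfkfb2 (0.83, adjusted p = 0.00770), Ldha (0.27, adjusted p = 0.0446) and Hk1 (0.27, adjusted p = 0.0361), all from edgeR. For 13 of 36 members the batches did not overlap, against 27.9% of all genes. Hk2 (0.34, adjusted p = 0.146), Pfkl (-0.32, adjusted p = 0.0715) and Eno1 (-0.25, adjusted p = 0.0521) did not pass. The summed rod markers were 5337 to 5843 CPM in batch 1 and 10496 to 14885 CPM in batch 2, and their part in this result was not tested. Of the other lists, Dld, a subunit shared by pyruvate dehydrogenase and its relatives, was higher in batch 2 (0.28), and the lysosomal glucosidase gene Gaa (-0.29) and Ogdhl (-0.26) were lower. Without D3 the number of members called was 1 and without H1 it was 10, so this count moved with single libraries. Whether the HAL effect differed between batches could be tested only weakly, since batch 1 holds 1 HAL library and batch 2 holds 1 DMSO library. That test called 49 of 11701 genes and 0 members (lowest adjusted p among members 0.162, edgeR).

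The 3 absent members were low where the transcript table held them. Pfkfb1 stood at 1.15 to 2.42 CPM in the WT libraries and 0.98 to 1.54 CPM in rd10. Pdk4, the starvation-induced kinase, stood at 0.20 to 0.71 CPM and 0.53 to 1.30 CPM, and Slc16a8 stood at 1.66 to 5.78 CPM and 1.91 to 7.21 CPM. The counts behind them were 24 to 51 for Pfkfb1, 4.02 to 42.1 for Pdk4 and 31 to 196 for Slc16a8, and no test was made.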

How the data were processed

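PolyA RNA of 10 retinas was sequenced with a stranded kit. The authors pseudoaligned reads with kallisto to Ensembl mouse transcripts (version 115, GRCm39) and imported them with tximport. They deposited estimated counts per transcript and per gene. The authors' CPM table holds these counts divided by 1 factor per library, and it was treated as a scaled signal and used only to check levels, which were 0.979 to 1.03 times the deposited values. The table of the authors' own HAL comparison holds fold changes and p-values and was not used.

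Estimated counts were rounded, filtered by filterByExpr and scaled by TMM. The main test was edgeR's quasi-likelihood F-test (version 4.0.16, under R 4.3.3) with Benjamini-Hochberg adjustment over all genes and a threshold of 0.05, on the groups compared alone. Log2 CPM used a prior count of 2. SE came from the F statistic. Alternatives were DESeq2 1.42.0, limma-voom (limma 3.58.1), other scalings, no filter, all 10 libraries, a batch term and leaving out each library. W4 left out together with another choice, and the Hk1 transcripts, were added after the data were seen. Isoform shares were compared by exact two-sided permutation tests.

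Symbols matched 11492 of 11702 identifiers. Levels per kilobase used GENCODE M21 transcript lengths, which held over 95% of the counts of 34 members, and not of Tpi1 and Ldhb. That annotation (GRCm38) is of another build than the authors', so coordinates are given only for the printed sequences. The reference promoters covered 36 of the 39 listed members, all but Bsg, Slc16a7 and Slc2a3. SE include the spread between libraries.

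Chi-square per gene ran from 4.48 to 431 over the library pairs within groups, and none of them is a copy. Nothing in the labels says that libraries come from separate animals, so p-values measure the spread between these samples, which may be technical. In simulated data for 11696 genes (rd10 against WT without W4), 93.0% of genes given a fold of 2 were recovered, and 62.0% at a fold of 1.5. The members and the gene lists were chosen with earlier results of these data known. Named genes are all members and, of the other lists, the 3 called genes with the largest change in each direction per comparison, besides Pde6b and genes named as exceptions.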

Additional observations from a re-analysis of the deposited data

Results flagged for a closer look

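In the WT group, 1 library stood far from the other 3 for 14 of 36 members, its gap to the nearest other library, divided by the range of the group, being above Dixon's 95% critical value. Chance gives about 1 in 20, or 1.8 of 36. In each of the 14 the library was W4, which was low for 10 and high for 4. The values were 0.976 for Nxnl1, 0.963 for Pdhb, 0.961 for Pfkfb2, 0.933 for Nxnl2, 0.932 for Hk1, 0.914 for Pkm, 0.888 for Ldha, 0.877 for Slc16a3, 0.862 for Slc16a1 and 0.854 for Bsg, in which W4 was low. They were 0.941 for Pfkm, 0.904 for Ldhb, 0.862 for Slc16a7 and 0.846 for Mpc1, in which it was high. These genes share 1 library, so the values are not independent of each other. The same library held Pde6b at 93.1 CPM, and the reason was not tested.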

How the results depend on the processing

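No paired analysis was possible because replicate numbers were given in accession order and do not pair libraries. Members called in rd10 DMSO against WT were 0 as designed, 6 by DESeq2 and 0 to 25 when 1 library was left out, the 25 being without W4 and every other such fit giving 0. With W4 left out as well, they were 27 (DESeq2), 26 (limma-voom), 26 (library size only), 24 (upper quartile), 25 (no filter) and 29 (batch 1 only). For HAL against WT the count was 0 as designed, 9 by DESeq2 and 0 to 29 leaving out 1 library, and without W4 32, 31, 26, 30 and 29 in that order, and 26 with batch as a term. In HAL against DMSO it was 0 under every alternative run. Between batches it was 5, with 10 by DESeq2, 0 with all 10 libraries, 3 without a treatment term and 1 to 10 leaving out 1 library (1 without D3, 10 without H1, 2 to 3 without any of the others). Over all genes these were 0 as designed, 589 (DESeq2), 7280 (without W4) and, in the order above, 7336, 7388, 7440, 7232, 7286 and 8460 for rd10 DMSO against WT. For HAL against WT they were 1 of 11699 as designed, 2221 (DESeq2), 8408 (without W4) and 7807 to 8421 without W4 under the further alternatives. Between batches they were 542, with 1419 (DESeq2), 218 (no treatment term), 91 (without D3) and 2638 (without H1). The cause was not tested.

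Scaled by library size alone, the sign turned in rd10 DMSO against WT, with and without W4, for Pgk1 (0.0534, 0.0460), Eno1 (0.0140, 0.0542), Bsg (0.0350, 0.0447), Pdk3 (0.0529, 0.0234) and Mpc2 (0.0452, 0.0306), none of them called. Pgk1 in HAL against WT came to 0.000178 under that scaling with W4 kept. Leaving out 1 library in rd10 DMSO against WT, Slc2a1 ran from -0.0477 to 0.158, Pfkp from -0.00363 to 0.150 and Pfkl from -0.409 to -0.151. In HAL against DMSO, Nxnl2 was -0.0823 with batch as a term and ran from -0.00511 to 0.545 leaving out 1 library, Pfkfb2 was 0.0207 by limma-voom and ran from -0.259 to 0.379, and Ldha ran from -0.113 to 0.0809. Nxnl1 ran from 0.17 to 0.89, Hk2 from 0.13 to 0.49, Hk1 from 0.15 to 0.31, Slc16a3 from 0.16 to 0.38, Slc16a1 from -0.28 to -0.19, Slc16a7 from -0.36 to -0.25 and Slc2a1 from 0.07 to 0.28. Between batches, Hk2 ran from 0.09 to 0.59 and Pfkl from -0.49 to -0.15. The intron-retaining share of Nxnl2 in rd10 DMSO minus WT ran from -2.87 to 3.20 points, and the share of Hk1-212 in HAL minus DMSO from -0.548 to 0.792.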
